A study of Mus musculus with 4 samples.

Results

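IL-6, TIMP-1, VEGF and leptin are 4 of the 32 proteins that were read in mouse serum on an antibody array, and they are set out here as systemic factors, made by many tissues outside the lymphocytes. They were named as a set with earlier results of these data known, and found by name. All 4 names were found on each array and in the table of ratios, and each matched 1 gene of the mouse reference table (Il6, Timp1, Vegfa and Lep). On such an array a spotted antibody catches 1 protein, and the biotin that labels the caught protein is read as the brightness of the spot. One group was serum of mice with experimental autoimmune encephalomyelitis (EAE), an autoimmune inflammation of the brain and spinal cord used as a model of multiple sclerosis, with 2 samples. It was set against serum of control mice, called vehicle controls in the design, also with 2 samples, and all 4 samples came from male C57BL/6 mice. How EAE was induced, what the vehicle was, the age of the mice and the day of bleeding are not stated in the labels. The protocol brings serum together in 1 tube without giving a number of animals per sample, so the p-values speak only of the spread among these 4 samples, and that spread may be technical.

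IL-6 is a cytokine that signals through the gp130 receptor chain and drives the acute-phase response of the liver, and together with TGF-beta it steers naive T cells towards the T helper 17 class that takes part in EAE. TIMP-1 is a secreted inhibitor of matrix metalloproteinases, the enzymes that cut the extracellular matrix and help leukocytes through the basement membranes of vessels. VEGF is a growth factor of endothelial cells that also makes vessels leaky. Leptin is the hormone by which fat cells report energy stores to the hypothalamus, and its receptor, which resembles gp130, is also present on T cells.

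All 4 proteins had lower signals in EAE serum than in control serum. Both of the scales used here need a definition. Brightness is the intensity relative to the average positive-control spot of its array, with the background left in. The normalised signal is the authors' deposited ratio, in which the average of the blank spots is 0 and the positive control is 1. In normalised signal VEGF fell 4.03-fold, IL-6 3.60-fold, leptin 2.90-fold and TIMP-1 1.89-fold (limma, adjusted p = 0.00079, 0.00079, 0.0042 and 0.013 in that order, with Benjamini-Hochberg adjustment over the 32 proteins). The fall was not particular to them: 30 of the 32 proteins, or 93.8%, were called lower in EAE in normalised signal and 29, or 90.6%, in brightness, so that 4 called members of 4 is near the background. The higher EAE value was below the lower control value for all 4 members and for 31 of the 32 proteins, or 96.9%. The median difference of the 4 members was -1.69 on the log2 normalised-signal scale, against -1.84 over all 32 proteins. That of all 32 takes 7 proteins not above background in EAE at their measured values; with those at their bounds the median fall was 3.23-fold for the members and at least 2.88-fold for all 32, so the order of the medians is not established. In log2 brightness the medians were -0.51 for the members and -0.54 over all 32.

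The array controls differed much less between the groups. The positive-control average was 51232 ± 1445 on EAE arrays and 53743 ± 649 on control arrays (SD, n = 2 each), a difference of -4.67%. The blank average was 9866 ± 164 on EAE arrays and 9924 ± 22.2 on control arrays. The brightest background value of every array was a single blank spot, at 11355 and 11087 on the EAE arrays and 10916.5 and 11167.5 on the control arrays. The median protein intensity was 12769 and 12000 on the EAE arrays against 20392 and 20734 on the control arrays, so both EAE arrays stood apart from both control arrays over the whole panel. A difference in protein content and a difference in the amount of serum applied cannot be told apart with these control spots.

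VEGF had intensities of 14152 and 12813 on the EAE arrays, against 26033.5 and 24384 on the control arrays. Its normalised signals were 0.0987 and 0.0757 in EAE, against 0.364 and 0.334 in controls. Both EAE values lay far below both control values, with a gap of 0.235 between the groups where the 2 controls themselves differed 1.09-fold and the 2 EAE samples 1.30-fold. The mean was 0.087 ± 0.016 in EAE and 0.349 ± 0.021 in controls (SD, n = 2 each), or 25.0% of the control level. Each EAE sample was 20.8% to 29.6% of each control sample. In brightness the log2 difference was -0.83 ± 0.06 (limma SE, adjusted p = 0.0024), a fall of 1.78-fold. With any 1 of the 4 samples left out the log2 difference of VEGF stayed between -0.88 and -0.79 in brightness. In normalised signal it stayed between -2.20 and -1.82. For IL-6 the ranges were -0.60 to -0.53 in brightness and -1.96 to -1.74 in normalised signal.

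IL-6 read 12238.5 and 12270 intensity units in EAE serum, against 19326.5 and 18713 in control serum. In normalised signal this was 0.0534 and 0.0623 in EAE, against 0.212 and 0.203 in controls. The groups did not overlap, and the replicates lay close together: 28 of the 32 proteins had control replicates further apart. IL-6 averaged 0.0578 ± 0.0063 in EAE and 0.2075 ± 0.0064 in controls (SD, n = 2 each), or 27.9% of the control level. It was the member in which EAE sample 2 lay above EAE sample 1 in normalised signal; in VEGF, TIMP-1 and leptin sample 1 was higher. The log2 brightness difference was -0.56 ± 0.06 (limma SE, adjusted p = 0.0028). The EAE intensities were 1.08 and 1.11 times the brightest background value, and the blank average made up 80.5% of the mean EAE intensity and 52.2% of the mean control intensity.

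In normalised signal TIMP-1 kept the largest share of its control level of the 4, 53.2%, whereas in brightness leptin did. Its intensities were 18448.5 and 16151 in EAE serum, against 25398 and 24012.5 in control serum. Its normalised signals were 0.200 and 0.158 in EAE, against 0.349 and 0.325 in controls. Again both EAE values were below both controls, and each EAE sample was 45.3% to 61.6% of each control sample. The mean was 0.179 ± 0.030 in EAE and 0.337 ± 0.017 in controls (SD, n = 2 each). The log2 brightness difference was -0.45 ± 0.07 (limma SE, adjusted p = 0.0066). The call depended on single samples: in normalised signal it was lost without control 1 (limma adjusted p = 0.095) and without control 2 (adjusted p = 0.068), and in brightness without EAE 2 (adjusted p = 0.051), whereas the log2 difference stayed between -1.09 and -0.75 in normalised signal. With any sample left out, the single sample of its group is assumed to vary like the other group.

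Leptin had the widest spread between replicates of the 4. It read 12330 and 11354.5 intensity units in EAE serum, against 17399.5 and 14686 in control serum. The normalised signals were 0.0556 and 0.0397 in EAE, against 0.169 and 0.110 in controls. The groups did not overlap, but the gap of 0.0546 between them was smaller than the gap between the 2 control sera, which differed 1.53-fold. Only 5 of the 32 proteins had control replicates further apart. The mean was 0.048 ± 0.011 in EAE and 0.139 ± 0.041 in controls (SD, n = 2 each). Each EAE sample was 23.5% to 50.4% of each control sample. In brightness the log2 difference was -0.36 ± 0.10 (limma SE, adjusted p = 0.022), and the call was lost without EAE 1 (adjusted p = 0.080) and without EAE 2 (adjusted p = 0.12). On the array of EAE 2 the leptin spot stood 267.5 units above the brightest background value, against 975 units in EAE 1 and 6483 and 3518.5 units in the controls. For each of the 4 proteins the exact two-sided permutation test over the 6 arrangements of the samples gave p = 0.333, the smallest it can give.

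**Figure D1:**
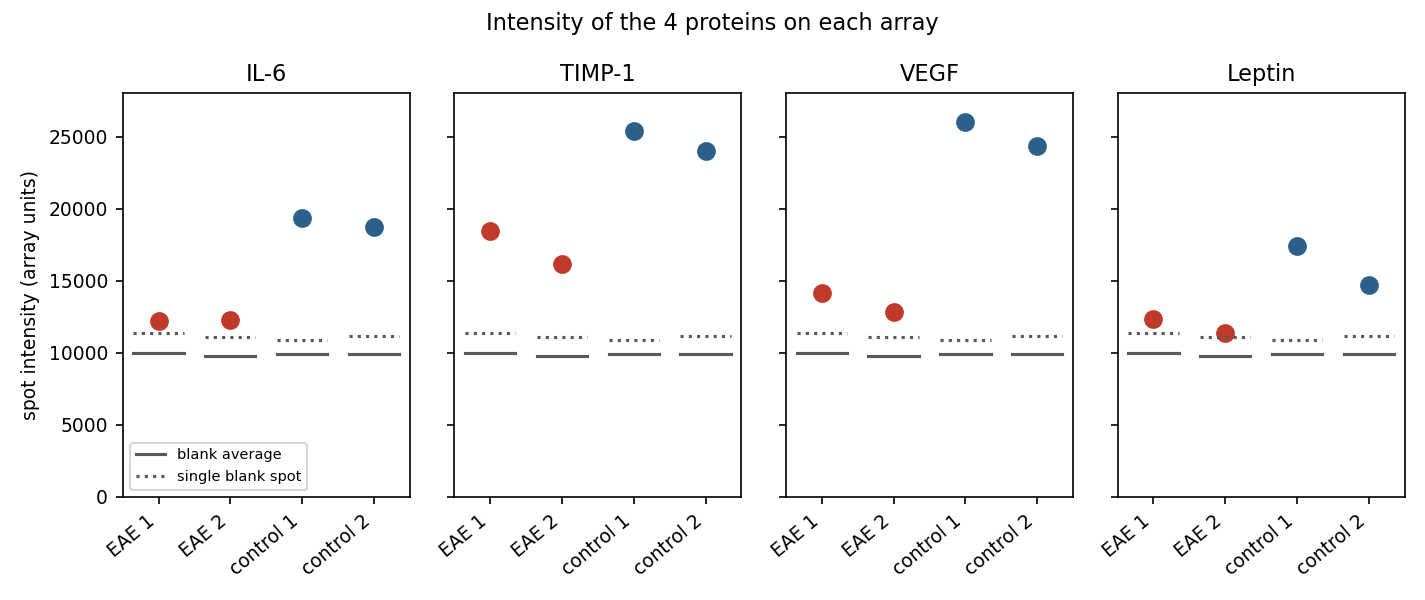
Spot intensity in array units (y axis, from 0) of IL-6, TIMP-1, VEGF and leptin on the 2 EAE arrays (red) and the 2 control arrays (blue), with each array's blank average (solid line) and single blank spot (dotted line). Points are single arrays; both EAE points lie below both control points for all 4 proteins, and IL-6 and leptin in EAE lie just above the dotted line.

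Since the whole panel was dimmer in EAE, each member's place among the 32 proteins was set out by the size of its fall. The order was taken among the 24 proteins above the brightest background value on all 4 arrays. Proteins below it on both EAE arrays have only bounds. In log2 normalised signal VEGF came 5th of these from the largest fall, IL-6 8th, leptin 12th and TIMP-1 18th. Among all 32 proteins at their measured values they came 13th, 16th, 20th and 26th. The filter leaves out IL-13 and 6Ckine, which fell more than VEGF even at their bounds, at least 7.22-fold and 4.86-fold. The remaining bounds lay below the 4.03-fold of VEGF, so the places of those proteins are not known. KC, above background on 3 of the 4 arrays, was left out too. It was given no bound, and its measured fall was 4.11-fold. VEGF lay between IL-5, a growth factor of eosinophils that was 4.07-fold lower, and IL-12p70, a promoter of T helper 1 cells that was 3.92-fold lower. IL-6 lay between IL-9, at 3.85-fold lower, and IFN-gamma, the macrophage-activating product of T helper 1 cells, at 3.55-fold lower. Leptin lay between the myeloid growth factor GM-CSF, at 3.16-fold lower, and the chemokine TARC, at 2.86-fold lower. TIMP-1 lay between the monocyte attractant MCP-5, at 2.39-fold lower, and the skin chemokine CTACK, at 1.87-fold lower. These neighbours are the nearest by choice, so their differences from the members were not tested. In both EAE and control sera all 4 members were above the brightest background value, whereas 7 proteins of the panel were not above it on either EAE array.

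**Figure D2:**
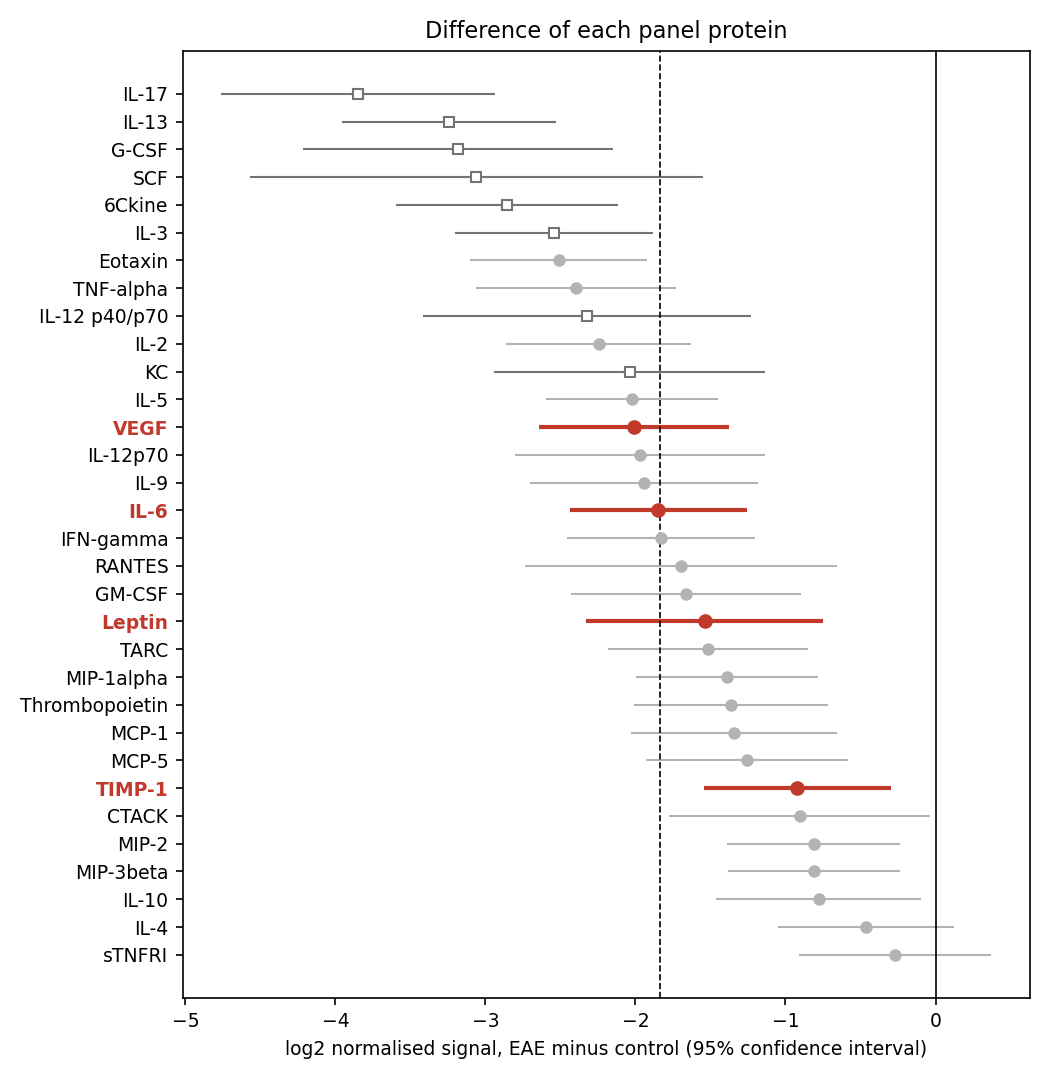
Log2 normalised signal in EAE minus control (x axis) for each of the 32 proteins (y axis, largest fall at the top), with 95% confidence intervals from limma; the 4 members are red, open squares are proteins not above background on at least 1 EAE array, and the dashed line is the panel median of -1.84 with all proteins at their measured values. VEGF, IL-6 and leptin lie between -2.01 and -1.54 and TIMP-1 at -0.92; with the 7 proteins not above background on either EAE array at their bounds, the panel median is a fall of at least 2.88-fold.

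After the arrays were set to equal panel medians, which moved the median of all log2 brightness differences by 0.66, none of the 4 members passed in brightness, against 4 of the 32 proteins, or 12.5%. The members stood at 0.30 ± 0.11 for leptin, 0.22 ± 0.08 for TIMP-1, 0.10 ± 0.08 for IL-6 and -0.17 ± 0.08 for VEGF (limma SE), where the median of all proteins was 0.12. Leptin and TIMP-1 passed an unadjusted threshold of 0.05 as higher, and missed it after adjustment (limma adjusted p = 0.11 each). In normalised signal relative to the array median 10 of the 32 proteins, or 31.2%, passed, and TIMP-1 was the member among them. It was higher in EAE by 1.09 ± 0.24 on the log2 scale (limma SE, adjusted p = 0.0082), where the median of all proteins was 0.17. With any sample left out this TIMP-1 value stayed between 1.00 and 1.18, but the call was lost without control 2. The EAE array medians that serve as reference here lay near background. They were 12769 and 12000 intensity units, where the brightest background values were 11355 and 11087. Leptin stood at 0.47 ± 0.30, IL-6 at 0.16 ± 0.26 and VEGF at -0.0035 ± 0.24 on this scale (limma adjusted p = 0.23, 0.66 and 0.99).

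The members were also compared with each other within each array. Antibodies differ in how brightly they report a protein, so the level of a ratio means nothing about amounts, and only its change between sera is read. In normalised signal, a ratio within an array does not hold whatever changes all signals above the blank average by the same factor. Brightness leaves the background in, so there such a change does alter the ratio of a brighter to a dimmer spot. All 496 pairs of the 32 proteins were fitted together and adjusted together, and the 6 pairs among the members are given here. Of all pairs 38.3% passed in normalised signal and 9.27% in brightness, against 1 of the 6 member pairs on each scale, a different pair each time. The pairs share proteins and the spread was pooled over them, so these p-values lean on a shared estimate.

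The ratio of TIMP-1 to VEGF changed the most in normalised signal. It was 2.03 and 2.09 in EAE serum, against 0.961 and 0.974 in control serum. The replicates of each group differed little, and the groups lay far apart. The blank average made up 57.0% of the mean TIMP-1 intensity in EAE and 40.2% in controls, and 73.2% of the mean VEGF intensity in EAE and 39.4% in controls. The ratio was 2.13-fold higher in EAE, with a 95% confidence interval of 1.17 to 3.89 (limma adjusted p = 0.042). In brightness it was 1.30 and 1.26 in EAE, against 0.976 and 0.985 in controls, a change of 1.31-fold that did not pass (limma adjusted p = 0.068). The normalised-signal call was lost when any of the 4 samples was left out (limma adjusted p from 0.061 to 0.18), while the log2 change stayed between 1.07 and 1.11. It was also lost with the negative average (adjusted p = 0.071) or the single blank spot (adjusted p = 0.052) subtracted, where the changes were 2.37-fold and 2.83-fold. In brightness the log2 change of this ratio stayed between 0.36 and 0.41 with any sample left out.

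The ratio of TIMP-1 to IL-6 was 3.75 and 2.54 in EAE, against 1.65 and 1.60 in controls, in normalised signal. The groups did not overlap, and the EAE values were further apart than the control values. The ratio was 1.90-fold higher in EAE, with an interval of 1.03 to 3.50, and did not pass (limma adjusted p = 0.088). It passed in a fit of the pairs of the 24 proteins above background on all arrays (limma adjusted p = 0.026). There 101 of 276 pairs were called. With the replicate block it passed too (limma adjusted p = 0.038), where 244 of 496 pairs were called. With a sample left out the log2 change ran from 0.64 to 1.21, the highest without EAE 2. In the fits with the filter, with the block and without EAE 2 the 6 member pairs all had the same SE (0.35, 0.39 and 0.49 in that order). The spread was thus wholly pooled, and the replicates of this pair did not set it. In brightness the ratio of TIMP-1 to IL-6 was 1.51 and 1.32 in EAE, against 1.31 and 1.28 in controls, and the change of 1.08-fold did not pass (limma adjusted p = 0.55, interval 0.889 to 1.32). The ratio of TIMP-1 to leptin was 3.61 and 3.99 in EAE, against 2.07 and 2.95 in controls, and its change of 1.53-fold did not pass (limma adjusted p = 0.27, interval 0.834 to 2.82). In brightness this ratio overlapped between the groups. With the single blank spot subtracted, both TIMP-1 to IL-6 (3.42-fold, limma adjusted p = 0.020) and TIMP-1 to leptin (4.11-fold, adjusted p = 0.0070) passed. There too the 6 member pairs had the same SE, 0.64 on the log2 scale, and 99 of 276 pairs were called.

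Among the other pairs, the ratio of leptin to VEGF was higher in EAE in brightness, at 0.871 and 0.886 in EAE against 0.668 and 0.602 in controls. This change of 1.38-fold passed (limma adjusted p = 0.044), and the call was lost without EAE 1 (adjusted p = 0.38) or EAE 2 (adjusted p = 0.47). Brightness leaves the background in. The blank average made up 83.3% of the mean leptin intensity in EAE and 61.9% in controls. For VEGF it was 73.2% in EAE and 39.4% in controls. How far this background set the change in brightness was not tested. In normalised signal the ratio of leptin to VEGF was 0.563 and 0.524 in EAE, against 0.464 and 0.330 in controls, which did not pass (limma adjusted p = 0.39, interval of the fold 0.756 to 2.55). The ratio of IL-6 to VEGF was 0.541 and 0.823 in EAE, against 0.583 and 0.608 in controls, so the groups overlapped (interval of the fold 0.608 to 2.06). The ratio of leptin to IL-6 overlapped as well, at 1.04 and 0.637 in EAE against 0.795 and 0.543 in controls (interval of the fold 0.665 to 2.31). Each of these 3 intervals holds both a fold of 1 and folds above 2.

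**Figure D3:**
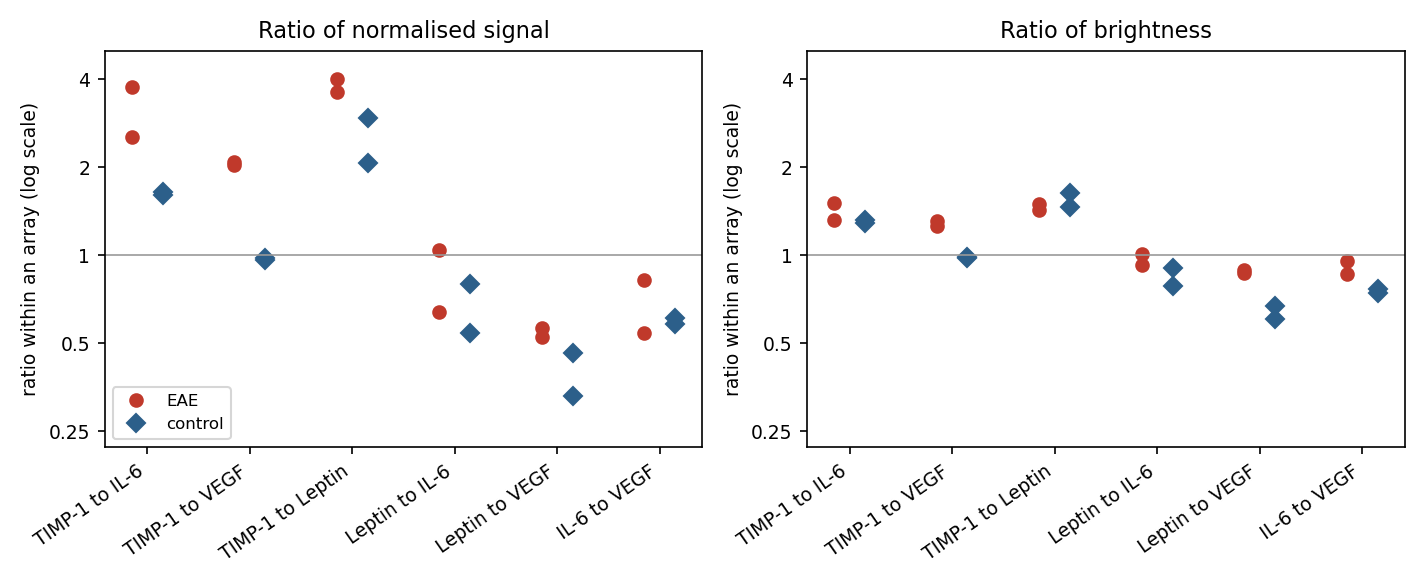
Ratio of 2 proteins within an array (y axis, log scale) for the 6 pairs of members, in normalised signal (left) and brightness (right); circles are EAE arrays and diamonds control arrays, 2 of each. TIMP-1 to VEGF shows the clearest separation in normalised signal, at 2.03 and 2.09 in EAE and 0.961 and 0.974 in controls, while leptin to IL-6 and IL-6 to VEGF overlap there.

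How large each fall was, and the order of the members, depended on which background was taken off. Without subtraction the folds were 1.78 for VEGF, 1.48 for IL-6, 1.36 for TIMP-1 and 1.29 for leptin. With the average of the negative spots in place of the blank average they were 4.69 for VEGF, 4.40 for IL-6, 3.97 for leptin and 1.98 for TIMP-1. With the single blank spot they were 8.76 for leptin, 7.30 for IL-6, 6.03 for VEGF and 2.13 for TIMP-1. Leptin, whose spot on EAE array 2 was the closest of the members to background, went through the widest range, and its 95% confidence interval with the single blank spot was 2.16 to 35.5. TIMP-1, which stood furthest above background in EAE, kept a fold between 1.89 and 2.13 under the 3 subtractions and was the smallest of the 4 under each. All 4 proteins stayed past the threshold under each of these choices (limma adjusted p from 0.00079 to 0.030), as did most of the panel. Without subtraction 29 of 32 proteins were called, and with the blank average 30 of 32. With the negative average 21 of 27 were called, and with the single blank spot 21 of 24. Those fits held fewer proteins because the others had values below the background.

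**Figure D4:**
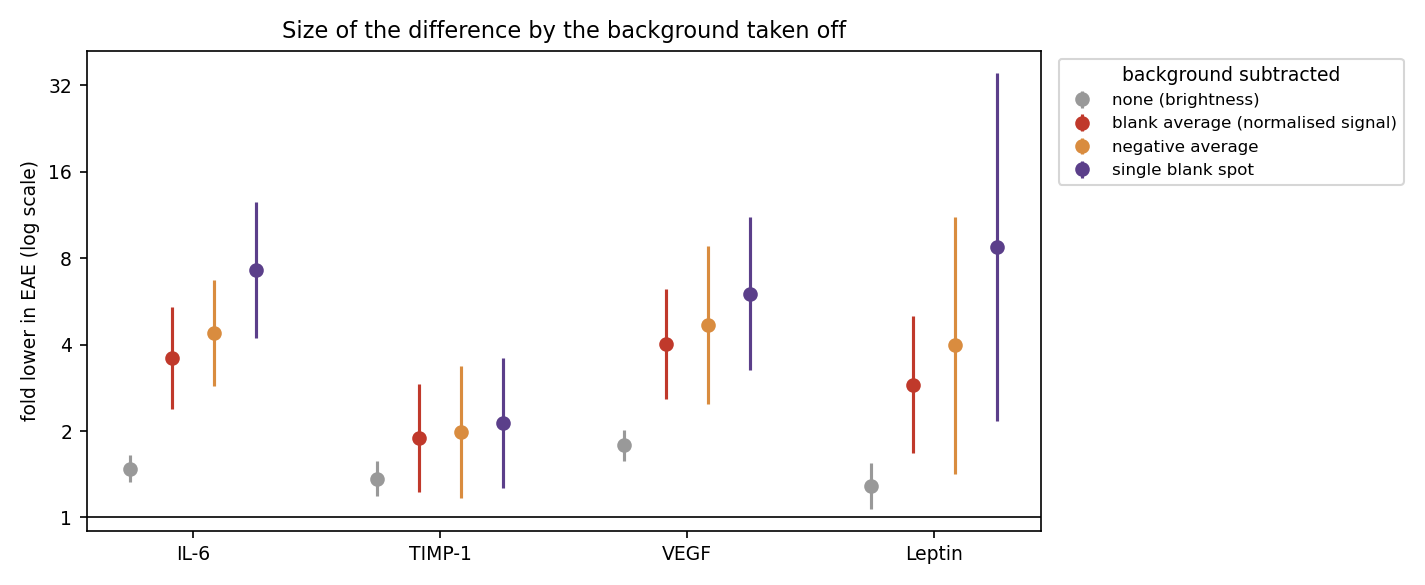
Fold by which each protein was lower in EAE (y axis, log scale) for 4 choices of background, with 95% confidence intervals from limma. TIMP-1 stays near 2.13 or below, whereas leptin runs as high as 8.76 with the single blank spot.

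The proteins whose profile over the 4 arrays was most like each member were found by the root mean square difference of log2 normalised signals, each protein centred on its own mean. For IL-6 these were IL-5 (0.13) and IFN-gamma (0.18), where the median distance to the panel was 0.43. For VEGF they were IFN-gamma (0.12) and the T cell growth factor IL-2 (0.14). For TIMP-1 they were IL-10, an anti-inflammatory cytokine (0.10), and MIP-2, a neutrophil attractant (0.11). IL-10 had normalised signals of 0.0592 and 0.0409 in EAE, against 0.0866 and 0.0821 in controls, and MIP-2 had 0.360 and 0.338 in EAE, against 0.621 and 0.605 in controls. In log2 brightness IL-10 differed by only -0.12 and was not called (limma adjusted p = 0.10). TIMP-1 differed there by -0.45 and MIP-2 by -0.53, so the likeness to IL-10 is one of normalised signal. For leptin the nearest were MCP-5 (0.19) and the chemokine MIP-1alpha (0.19). Among the members IL-6 and VEGF were nearest to each other (0.23), and TIMP-1 and VEGF were furthest apart (0.55).

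Other proteins with related roles, grouped by name, were lower relative to the positive control too, and their counts stand beside the 93.8% of all proteins called lower in normalised signal and the 90.6% in brightness and are near that background. Of 5 panel entries listed by name under long-chain helical cytokines with gp130-type receptors, all 5 fell on both scales, with a median of -1.97 in log2 normalised signal. They include IL-6 and leptin. IL-12 enters both as IL-12p70 and as IL-12 p40/p70, so the 5 entries are not 5 separate cytokines. G-CSF, which drives neutrophil production, was not above background in EAE and was at least 3.21-fold lower. Since IL-12 p40/p70 was also not above background in EAE, at least 2.03-fold lower, the extremes of this group are not established. Of 3 proteins that platelets release during clotting, VEGF, TIMP-1 and the chemokine RANTES, all 3 fell, with a median of -1.70. RANTES was 3.24-fold lower (limma adjusted p = 0.0090). Of 7 inflammatory proteins of macrophages and stroma, IL-6 among them, all 7 fell, with a median of -1.85; MIP-2 was 1.76-fold lower and had the smallest difference. For comparison, 8 of 8 cytokines made mainly by lymphocytes fell in brightness and 7 of 8 in normalised signal, with a median of -2.13. IL-17, of the T helper 17 class, was at least 2.79-fold lower, and IL-4, of the T helper 2 class, was 1.38-fold lower and did not pass (limma adjusted p = 0.11). Proteins not above background on either EAE array were then set to their bounds, and KC stayed at its measured 4.11-fold. The group medians in the order above are then themselves bounds, except for the platelet proteins. They were at least 3.21-fold, 3.24-fold, at least 3.21-fold and at least 3.70-fold lower. Both values of 3.21 are the bound of G-CSF. The 4 members, with none at a bound, stood at 3.23-fold and all 32 proteins at 2.88-fold or more, so the order of these medians is not established. Once the panel medians of the arrays were made equal, the 4 group medians in log2 brightness turned positive, at 0.15, 0.12, 0.10 and 0.10 in that order, around the 0.12 of all proteins. In log2 normalised signal relative to the array median they were 0.04, 0.31, 0.16 and, for the lymphocyte cytokines, -0.13, where all proteins stood at 0.17. Of those 8 lymphocyte cytokines 2 were called lower and 1 higher on this scale, and 3 were not above background in EAE.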

How the data were processed

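Serum of 2 EAE and 2 control samples was measured on 1 antibody array each. The deposited per-sample values are intensities, with the positive, blank and negative spots averaged, per the row names and file headers; the labels do not describe imaging or spot finding. The authors also deposited a table of ratios. Recomputing it gave the intensity minus the blank average, over the positive average minus the blank average, within 1.2e-07. Brightness (log2) and the log2 of that ratio were each fitted over all 32 proteins by group alone (lmFit and eBayes of limma 3.58.1, R 4.3.3; two-sided tests, Benjamini-Hochberg adjustment, threshold 0.05). There were 2 residual degrees of freedom, to which pooling across proteins added 1.99 in brightness and 4.09 in normalised signal. The 496 within-array log2 ratios were fitted likewise; pooling added 8.34 and 30.4, and the pairs are not independent of each other. A protein was not above background where it did not exceed the brightest of the blank average, negative average and single blank. Where this held on both EAE arrays a bound replaces the fold. For the bound each EAE value was set to at least the lowest value above background on its array. Intensities shared by 2 arrays numbered 0. Precision is limited by the number of arrays. No sequences or genome coordinates are given, since a protein array carries no genome build.

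Beyond the 4 members, the text names for each member the 2 proteins with the most similar profile and its neighbours in the order of differences, and for each group of proteins the extremes as measured. Taking that order among the proteins above background was chosen after their values were seen. Members, groups and tests were chosen with earlier results of these data known. Same-numbered samples deviated from their group means with a correlation of -0.16 in brightness and 0.33 in normalised signal over the 32 proteins, so the numbers were not treated as pairs.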

Additional observations from a re-analysis of the deposited data

How the results depend on the processing

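The count of members past the threshold was 4 on both scales with a filter on background, a robust prior and the replicate block. Of the panel, 22 of 24 proteins were called with the filter and 30 of 32 with the prior or the block, on each scale. The count was also 4 in brightness with unscaled intensities and with the crossed block, where 30 of 32 proteins were called each time. With the background subtracted the count was 4 with the negative average (21 of 27 called) and the single blank spot (21 of 24 called). In normalised signal without log2 the count was 4 as well (29 of 32 called). In brightness it was 0 with equal array medians and 0 under quantile normalization, and 1 (TIMP-1, higher) in normalised signal divided by the array median. With 1 sample left out it was 2 to 4 in brightness and 3 to 4 in normalised signal. The scalings that set the panel equal remove a shared shift by construction and turned the log2 difference positive for IL-6 (0.10 with median scaling, 0.062 with quantile normalization, 0.16 in normalised signal over its median), TIMP-1 (0.22, 0.15 and 1.09) and leptin (0.30, 0.15 and 0.47), but not for VEGF. The 1 member pair past the threshold in normalised signal became 2 (TIMP-1 to IL-6 beside TIMP-1 to VEGF) with the replicate block, 2 (the same pairs) among proteins above background, 0 with the negative average and 2 with the single blank spot subtracted, and 0 to 1 with a sample left out. With the single blank spot these were TIMP-1 to IL-6 and TIMP-1 to leptin, and the log2 changes of leptin to IL-6 (-0.26), leptin to VEGF (-0.54) and IL-6 to VEGF (-0.28) reversed; the cause was not tested. The 1 pair in brightness stayed 1 with the replicate block, became 2 with the crossed replicate block and was 0 to 3 with a sample left out. Leaving out a sample moved leptin to IL-6 between -0.044 and 0.66 and IL-6 to VEGF between -0.14 and 0.47 in normalised signal. The crossed block, the pair ratios under other backgrounds and the relative TIMP-1 value with a sample left out were chosen after seeing the data. Over the whole panel, 29 calls in brightness became 4 with equal medians, 1 under quantile normalization and 20 and 19 without EAE 1 and EAE 2; 30 in normalised signal became 10 over its median. Of all pairs, 46 calls in brightness became 0 to 283 with a sample left out and 119 with the crossed block, and 190 in normalised signal became 94 to 197 with a sample left out, 63 of 351 with the negative average, 99 of 276 with the single blank spot and 101 of 276 among proteins above background. Both blocks leave 1 residual degree of freedom. With the replicate block 66 of 496 pairs were called in brightness and 244 of 496 in normalised signal. In that block the 4 members had the same SE in normalised signal, 0.35, so their own replicates did not set it. IL-6 and leptin in EAE lay within 1.11 times the brightest background value, which limits the precision of their folds.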
